A study of Mus musculus with 14 samples.

Results

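Kruppel-like factors (KLFs) were followed across whole mouse kidneys of 3 groups: i-TERTci mice given GSK2830371, i-TERTci mice given DMSO, and control mice. The 10 genes, Klf2, Klf3, Klf4, Klf5, Klf6, Klf9, Klf10, Klf12, Klf13 and Klf15, were taken by gene symbol. Each has 1 row in both deposited tables, among 23682 genes that both tables hold. All 10 passed the filter on low values, and the smallest number of reads for any of them in any library was 132, for Klf5. They are part of a larger family of KLF and SP factors, of which 13 other genes also have a row in both tables.

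The data are bulk RNA sequencing libraries of 14 whole kidneys. i-TERTci (actin-rtTA+;TetOp-TERTci+) mice are heterozygous for 2 transgenes, and doxycycline in the drinking water makes them express TERTci, a catalytically inactive telomerase reverse transcriptase, in all tissues. Their kidneys develop collapsing glomerulopathy, in which podocytes are injured and protein leaks into the urine. Of these mice 5 received daily intraperitoneal GSK2830371, which selectively inhibits WIP1, the phosphatase encoded by Ppm1d, and 5 received the vehicle, DMSO. Injections started after heavy proteinuria had developed, and the recorded start day was the same for every i-TERTci mouse. The 4 control mice carried Actin-rtTA+ alone and drank doxycycline like the others. No injection is recorded for them, so the TERTci transgene, the disease and the injections cannot be told apart in a comparison with the controls. Ages are given only as adult. Kidneys of GSK2830371 replicates 1 to 5 were taken after 31, 49, 49, 49 and 28 days of doxycycline, those of DMSO replicates 1 to 5 after 29, 29, 29, 38 and 31 days, and all control kidneys after 30 days.

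KLFs are zinc-finger transcription factors that bind CACCC and GC-rich boxes in promoters, and they activate or repress genes according to the cofactors they recruit. In the kidney they are known from endothelial cells (KLF2, KLF4), podocytes (KLF4, KLF6, KLF15), injured tubule (KLF6) and collecting duct (KLF5). Klf9 and Klf15 are direct targets of the glucocorticoid receptor, and Klf10 is named for its induction by TGF-beta.

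The promoters of 5 members are shown because these genes had the largest changes in GSK2830371 against control kidneys (Klf6, Klf4 and Klf2) or the smallest unadjusted p in GSK2830371 against DMSO kidneys (Klf9, Klf2 and Klf15). They are RefSeq sequences of GRCm38.p6 from 250 bases before to 50 bases after the gene's start, written 5′ to 3′ on the gene's own strand. RefSeq promoters were matched for 8 of the 10 members; Klf5 and Klf10 were not among them. Capitals mark the CACCC box on either strand, the E-box CACGTG, to which the clock factors CLOCK and BMAL1 bind, and the MEF2 site, the element through which the kinase ERK5 is known to induce Klf2.
Klf2 promoter, chr8:72318812-72319111, plus strand: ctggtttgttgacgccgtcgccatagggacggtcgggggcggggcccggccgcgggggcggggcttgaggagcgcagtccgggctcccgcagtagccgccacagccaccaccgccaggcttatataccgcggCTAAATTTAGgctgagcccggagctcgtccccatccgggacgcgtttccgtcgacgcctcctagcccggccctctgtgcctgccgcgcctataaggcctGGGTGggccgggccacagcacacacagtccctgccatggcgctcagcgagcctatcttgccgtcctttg
Klf4 promoter, chr4:55532426-55532725, minus strand: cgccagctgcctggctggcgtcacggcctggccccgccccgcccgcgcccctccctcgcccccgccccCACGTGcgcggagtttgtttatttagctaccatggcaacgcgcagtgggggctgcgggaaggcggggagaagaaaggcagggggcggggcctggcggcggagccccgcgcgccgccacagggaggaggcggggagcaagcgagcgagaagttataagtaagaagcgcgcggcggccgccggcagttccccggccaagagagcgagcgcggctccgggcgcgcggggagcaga
Klf6 promoter, chr13:5861239-5861538, plus strand: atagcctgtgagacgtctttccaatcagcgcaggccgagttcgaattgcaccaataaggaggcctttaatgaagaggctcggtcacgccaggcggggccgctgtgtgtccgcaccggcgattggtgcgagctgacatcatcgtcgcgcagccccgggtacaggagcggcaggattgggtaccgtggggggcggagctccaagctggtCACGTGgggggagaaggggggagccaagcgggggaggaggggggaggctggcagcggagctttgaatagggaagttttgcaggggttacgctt
Klf9 promoter, chr19:23140976-23141275, plus strand: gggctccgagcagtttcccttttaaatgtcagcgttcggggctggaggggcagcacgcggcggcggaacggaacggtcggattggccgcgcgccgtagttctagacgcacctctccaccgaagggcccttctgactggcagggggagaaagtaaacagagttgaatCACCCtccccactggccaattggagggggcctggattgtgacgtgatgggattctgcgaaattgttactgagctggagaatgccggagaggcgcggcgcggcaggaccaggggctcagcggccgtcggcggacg
Klf15 promoter, chr6:90462326-90462625, plus strand: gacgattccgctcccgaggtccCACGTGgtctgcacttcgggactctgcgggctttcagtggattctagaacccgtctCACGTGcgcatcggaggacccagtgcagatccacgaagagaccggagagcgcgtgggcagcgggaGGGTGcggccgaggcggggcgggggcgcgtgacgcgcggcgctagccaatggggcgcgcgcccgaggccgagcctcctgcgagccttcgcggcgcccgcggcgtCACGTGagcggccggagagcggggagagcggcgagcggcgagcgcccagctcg
The Klf15 window holds 3 E-boxes, whose first bases lie at -228, -172 and -3 from the start, and 29 of 32544 promoters of this length (0.0891%) hold at least 3. Klf4 has 1 E-box at -182 and Klf6 1 at -43, and 7.17% of all promoters hold at least 1. The Klf2 window holds a MEF2 site at -118, as 3.16% of promoters do, and a CACCC box at -19. A CACCC box stands in 6 of the 8 members searched, against 57.7% of all promoters, and a GC box (GGGCGG) in 6 of 8, against 35.9%. In Klf3 and Klf13 the last base of 1 GC box is also the first of a CACCC box. Both strands were searched for every element. Such a match describes the letters in the window and does not show that a factor is bound there.

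The libraries held 48.4 to 49.4 M reads in genes for the GSK2830371 group, 47.2 to 48.8 M for the DMSO group and 48.5 to 64.6 M for the control group. Mitochondrial genes took 5.07% to 8.35% of them in GSK2830371, 4.95% to 9.52% in DMSO and 14.4% to 24.2% in control kidneys. Tert reads, which include the transgene, spanned 231 to 2546 normalised reads in GSK2830371 kidneys, 574 to 2732 in DMSO kidneys and 117 to 183 in control kidneys. Defining kidney markers were present in every library, with the proximal tubule transporter Slc34a1 at 28556 to 137777 in GSK2830371, 31519 to 142435 in DMSO and 207995 to 482016 normalised reads in control kidneys, and the podocyte gene Nphs1 at 923 to 4082 in GSK2830371, 1172 to 4849.9 in DMSO and 1560.4 to 2038 normalised reads in control kidneys. The labels give no sex: Xist-rich libraries numbered 3 of 5 in the GSK2830371 group (replicates 2, 3 and 4, which are also the 3 taken at 49 days), 2 of 5 in the DMSO group (replicates 2 and 5) and 4 of 4 in the control group. Where leaving out the Y-positive libraries ended a call against control kidneys stated here for a gene, the value without them is given beside it.

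Relative to control kidneys, Klf6 and Klf3 rose and Klf2 fell in both i-TERTci groups, and Klf4 also rose in the GSK2830371 group. In GSK2830371 against control kidneys 3 of the 10 KLFs rose and 1 fell, where 46.3% of the 18810 genes tested were called (24.3% higher and 22.1% lower). In DMSO against control kidneys 2 rose and 1 fell, where 48.3% of all genes were called (25.2% higher and 23.1% lower). The share of KLFs called was thus no larger than that of genes in general. The median log2 change of the 10 was 0.30 in GSK2830371 and -0.058 in DMSO against control kidneys, beside 0.011 in GSK2830371 and 0.026 in DMSO over all genes tested. A call is an adjusted p under 0.05 in limma's moderated test with Benjamini-Hochberg adjustment over all genes, and the changes are differences of log2(normalised reads + 1). Both of these comparisons share the 4 control libraries.

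**Figure D1:**
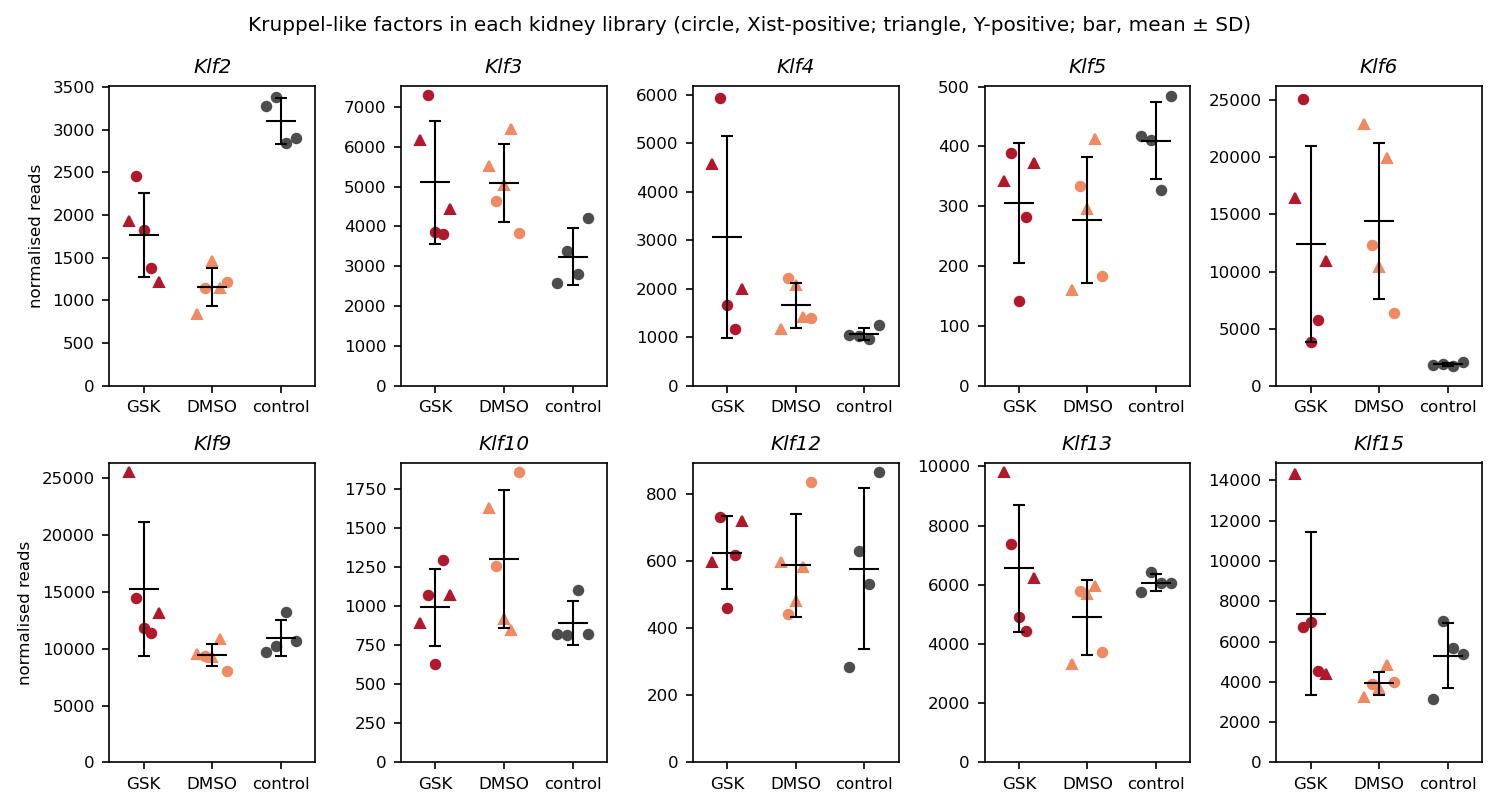
Normalised reads (vertical axes, from 0) of the 10 Kruppel-like factors in each kidney library, for the GSK2830371 (GSK), DMSO and control groups; circles are Xist-positive and triangles Y-positive libraries, and bars give mean ± SD. Klf6 lies above the control libraries and Klf2 below them in every i-TERTci library, whereas Klf12 overlaps in all 3 groups.

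Klf2, the shear-stress factor that keeps endothelium quiescent, fell in both i-TERTci groups. It had 1927, 2462, 1827, 1375 and 1222 normalised reads in GSK2830371 kidneys, 839, 1149.5, 1464, 1147 and 1212 in DMSO kidneys and 3274, 3383, 2842 and 2899 in control kidneys. Every i-TERTci library lay below every control library, and the lowest was DMSO replicate 1. The means were 1763 ± 491 in GSK2830371, 1162 ± 223 in DMSO and 3099.6 ± 269 in control kidneys (SD, n = 5, 5 and 4). The log2 change was -0.85 (SE 0.20, limma adjusted p = 0.00256) in GSK2830371 and -1.43 (SE 0.20, adjusted p = 4.41e-05) in DMSO against control kidneys. It was called in all 23 alternatives of each of these comparisons, including the Xist-positive libraries alone, where the change was -0.73 in GSK2830371 and -1.38 in DMSO kidneys. The summed level of 10 endothelial markers was 47097 to 59991 normalised reads in GSK2830371 kidneys, 31765 to 62121 in DMSO kidneys and 57923 to 85042 in control kidneys. Of these 10 markers, 2 rose and 4 fell in GSK2830371, and 1 rose and 5 fell in DMSO against control kidneys, none being at 0. The sum and Klf2 ranked the i-TERTci libraries differently. DMSO replicate 1, with the lowest Klf2, had the highest i-TERTci sum, 62121. DMSO replicate 4 had the lowest sum, 31765, with Klf2 at 1147. The defining marker Pecam1 was higher, at 4935 to 7489 in GSK2830371, 4357 to 6482 in DMSO and 3370.5 to 4025 normalised reads in control kidneys, with log2 changes of 0.67 (adjusted p = 0.00308) in GSK2830371 and 0.45 (adjusted p = 0.029) in DMSO against control kidneys. The DMSO call of Pecam1 was lost in the Xist-positive libraries alone (0.37, adjusted p = 0.164), with the Xist covariate (0.35, adjusted p = 0.148) and without DMSO replicate 1 or 3 or control replicate 1 or 3 (log2 changes of 0.37, 0.43, 0.44 and 0.39). The part of the endothelial markers in the fall of Klf2 was not tested, and in whole kidney fewer cells of a type and less RNA per cell cannot be told apart.

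Klf4, which shares endothelial targets with Klf2 and is also active in podocytes, rose in GSK2830371 kidneys. It had 4577, 5932, 1660.2, 1175 and 1997 normalised reads in GSK2830371 kidneys, 1176, 2227, 2071, 1427 and 1389.7 in DMSO kidneys and 1059, 1022, 971 and 1254 in control kidneys. GSK2830371 replicates 1 and 2 stood well above the other i-TERTci libraries, one of them Y-positive at 31 days and the other Xist-positive at 49 days, and the GSK2830371 and control libraries overlapped through GSK2830371 replicate 4. The log2 change was 1.24 (SE 0.39, adjusted p = 0.0162) in GSK2830371 against control kidneys and 0.59 (95% interval -0.24 to 1.41, adjusted p = 0.224) in DMSO against control kidneys. In the Xist-positive libraries alone the GSK2830371 change was 1.09 with an adjusted p of 0.0955, and the call was lost. The DMSO change was called when only the DMSO and control libraries were fitted (0.60, adjusted p = 0.0284).

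Genes upstream of these endothelial factors were described from a list of 14 in the ERK5 and MEF2 branch. Among them, 6 rose and 1 fell in GSK2830371 against control kidneys (median log2 change 0.27, 50% called), and 5 rose and 2 fell in DMSO against control kidneys (median 0.12, 50% called). Over all genes 46.3% were called in GSK2830371 and 48.3% in DMSO against control kidneys, close to the shares in this list. The list is not limited to the kinases and MEF2 factors, so its counts give no direction for the branch. Map3k3, which encodes the kinase MEKK3 at the top of this branch, rose by 0.82 (adjusted p = 0.00636) in GSK2830371 and 0.86 (adjusted p = 0.00427) in DMSO against control kidneys, and its DMSO call was lost in the Xist-positive libraries alone (0.58, adjusted p = 0.0563). Map3k2, for the related kinase MEKK2, rose more, by 1.92 (adjusted p = 6.83e-06) in GSK2830371 and 2.003 (adjusted p = 4.35e-06) in DMSO against control kidneys. Mapk7, which encodes ERK5 itself and was chosen after its values were seen, fell, with log2 changes of -0.93 (adjusted p = 0.00317) in GSK2830371 and -0.57 (adjusted p = 0.0443) in DMSO against control kidneys. The DMSO call of Mapk7 was lost in 13 of 23 alternatives, the Xist-positive libraries among them (-0.52, adjusted p = 0.0948), and without any 1 of DMSO replicates 1, 2, 3 and 5 or control replicates 1, 2 and 4 (log2 changes of -0.59 to -0.41), while its GSK2830371 call held in all 23. Of 14 endothelial genes that KLF2 and KLF4 are known to regulate, 6 rose and 2 fell in GSK2830371 against control kidneys (median log2 change 0.71, 57.1% called), and 7 rose and 2 fell in DMSO against control kidneys (median 0.92, 64.3% called). Nos3, the endothelial nitric oxide synthase that KLF2 induces, had log2 changes of 0.20 (adjusted p = 0.643) in GSK2830371 and 0.32 (adjusted p = 0.45) in DMSO against control kidneys and was not called. Adamts1, a secreted protease, rose by 1.28 (adjusted p = 0.000168) in GSK2830371 and 1.91 (adjusted p = 5.24e-06) in DMSO against control kidneys. Vcam1 and Edn1 of this list, for an adhesion molecule and the endothelin precursor, were chosen after their values were seen. Vcam1 rose by 1.82 (adjusted p = 0.00329) in GSK2830371 and 1.67 (adjusted p = 0.00528) in DMSO against control kidneys, and Edn1 by 1.97 (adjusted p = 0.000356) in GSK2830371 and 1.76 (adjusted p = 0.000759) in DMSO against control kidneys. Angpt2 and Thbd of the same list were also chosen after their values were seen. Angpt2 was lower, at 513 to 792 normalised reads in GSK2830371, 427 to 920 in DMSO and 986 to 1280 in control kidneys. Thbd overlapped with the controls, at 1761 to 3246 in GSK2830371, 1675 to 5164 in DMSO and 1657 to 1988 in control kidneys.

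Klf6, an early-response factor of injured tubule, endothelium and podocytes, had the largest change of the 10. It had 16459.6, 25067, 3851, 5806 and 10914 normalised reads in GSK2830371 kidneys, 22874, 12369, 10433, 19925 and 6389 in DMSO kidneys and 1805, 1914, 1719 and 2059 in control kidneys. All 10 i-TERTci libraries lay above all 4 control libraries, and within the i-TERTci groups the values ran from 3851 in GSK2830371 replicate 3 to 25067 in GSK2830371 replicate 2. The means were 12419 ± 8598 in GSK2830371, 14398 ± 6826 in DMSO and 1874 ± 147 in control kidneys (SD, n = 5, 5 and 4). The coefficients of variation were 69.2% in GSK2830371, 47.4% in DMSO and 7.83% in control kidneys. The log2 change was 2.42 (SE 0.48, adjusted p = 0.000995) in GSK2830371 and 2.80 (SE 0.48, adjusted p = 0.00031) in DMSO against control kidneys, and it was called in all 23 alternatives of each. Klf6 and Klf2 were the only KLFs whose libraries did not overlap with the controls in either comparison, 2 of 10 each time, where 40.3% of all genes in GSK2830371 (20.8% higher, 19.6% lower) and 38.8% in DMSO (20% higher, 18.8% lower) against control kidneys did not overlap.

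Immune-cell markers also differed between these libraries. The summed level of 9 neutrophil markers was 519 to 19352 normalised reads in GSK2830371 kidneys, 905 to 29392 in DMSO kidneys and 156 to 255 in control kidneys, and 8 of 9 rose in GSK2830371 and 8 of 9 in DMSO against control kidneys, with S100a8 at 0 to 21.1 normalised reads in control kidneys. For 8 macrophage markers the sum was 12274 to 36126 normalised reads in GSK2830371 kidneys, 7681 to 37887 in DMSO kidneys and 7678 to 11503 in control kidneys, with 4 higher in GSK2830371, and 4 higher and 1 lower in DMSO against control kidneys. Their part in the Klf6 change was not tested. GSK2830371 replicate 2 had the highest Klf6 value of all libraries, with a neutrophil sum of 858 and a macrophage sum of 36126, and DMSO replicate 1 had the next highest, with 29392 and 13923.

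Klf6 belongs to the genes that cells switch on within minutes of a stimulus, and 21 other immediate early genes were listed. Of these, 11 rose and 1 fell in GSK2830371 against control kidneys (median log2 change 1.12, 57.1% called), and 16 rose and 1 fell in DMSO against control kidneys (median 1.55, 81% called). Fos, the head of that list and an AP-1 subunit, rose by 2.82 (adjusted p = 4.89e-05) in GSK2830371 and 3.22 (adjusted p = 1.41e-05) in DMSO against control kidneys, and Nr4a3, an orphan nuclear receptor, by 2.57 (adjusted p = 2.29e-06) in GSK2830371 and 2.18 (adjusted p = 9.54e-06) in DMSO against control kidneys. Over all genes tested the median was 0.011 with 46.3% called in GSK2830371, and 0.026 with 48.3% called in DMSO against control kidneys. KLF4 and KLF6 are known to induce Cdkn1a, which encodes the cell cycle inhibitor p21. Cdkn1a rose by 3.26 (adjusted p = 0.000342) in GSK2830371 and 2.89 (adjusted p = 0.000743) in DMSO against control kidneys. In the list of 10 cell cycle targets that it heads, 9 were tested, and 2 rose and 3 fell in GSK2830371 against control kidneys (median log2 change 0.13, 55.6% called), and 1 rose and 2 fell in DMSO against control kidneys (median 0.28, 33.3% called).

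Klf3 and Klf12 repress genes through the corepressor CtBP. Klf3 had 6167, 7284, 3863, 3813 and 4427 normalised reads in GSK2830371 kidneys, 5522, 4628, 5036, 6453 and 3823 in DMSO kidneys and 2584, 3375, 2813 and 4202 in control kidneys. The highest control library, replicate 4, reached into the range of both i-TERTci groups. The log2 change was 0.63 (SE 0.22, adjusted p = 0.0269) in GSK2830371 and 0.65 (SE 0.22, adjusted p = 0.0218) in DMSO against control kidneys. Both calls depended on single libraries. The GSK2830371 call was lost without GSK2830371 replicate 1 (0.55, adjusted p = 0.0653) or 2 (0.49, adjusted p = 0.0724), and without control replicate 1 (0.53, adjusted p = 0.0897) or 3 (0.57, adjusted p = 0.0711). The DMSO call was lost without DMSO replicate 4 (0.56, adjusted p = 0.0536) and without control replicate 1 (0.55, adjusted p = 0.0744) or 3 (0.59, adjusted p = 0.0596). Neither was called in the Xist-positive libraries alone, with a change of 0.59 (adjusted p = 0.0816) in GSK2830371 and 0.41 (adjusted p = 0.298) in DMSO kidneys. With Xist as a covariate over all libraries the change was 0.52 (adjusted p = 0.0795) in GSK2830371 and 0.49 (adjusted p = 0.132) in DMSO kidneys, neither called. Klf3 was the only member with an exon overlapping another annotated gene, Gm20033 on the opposite strand, which had at most 114 reads.

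Klf12 had 597, 734, 462, 619 and 720.2 normalised reads in GSK2830371 kidneys, 597, 443, 481, 583 and 838 in DMSO kidneys and 284, 633, 532 and 866 in control kidneys. The groups overlapped completely, and the lowest and highest values of all were both in control kidneys. Its log2 change was 0.20 (95% interval -0.38 to 0.78) in GSK2830371 and 0.10 (-0.48 to 0.68) in DMSO against control kidneys, with an adjusted p of 0.563 for GSK2830371 and 0.791 for DMSO. Of 16 corepressors and coactivators that KLFs recruit, 2 rose and 6 fell in GSK2830371 against control kidneys (median log2 change -0.13, 50% called), and 3 rose and 6 fell in DMSO against control kidneys (median -0.073, 56.2% called). Ctbp1, for the corepressor that KLF3 and KLF12 bind, had log2 changes of -0.038 (adjusted p = 0.856) in GSK2830371 and 0.0093 (adjusted p = 0.965) in DMSO against control kidneys and was not called. Kat2a, which encodes the acetyltransferase GCN5, fell, with log2 changes of -1.58 (adjusted p = 2.16e-05) in GSK2830371 and -1.61 (adjusted p = 1.67e-05) in DMSO against control kidneys.

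Klf5, a factor of collecting duct epithelium, was the least abundant of the 10 per kilobase. It had 342, 389, 142, 282 and 372 normalised reads in GSK2830371 kidneys, 159.6, 334, 295, 412 and 184 in DMSO kidneys and 418, 410.0, 327 and 484 in control kidneys. Most i-TERTci libraries lay below the control mean, but the groups overlapped. The log2 change was -0.49 (95% interval -1.17 to 0.19, adjusted p = 0.219) in GSK2830371 and -0.64 (-1.32 to 0.039, adjusted p = 0.11) in DMSO against control kidneys. Among libraries of 31 days or fewer, the DMSO change was -0.80 with an adjusted p of 0.0231, past the threshold. Collecting duct principal cell markers summed to 28924 to 43187 normalised reads in GSK2830371 kidneys, 16905 to 45109 in DMSO kidneys and 48915 to 52396 in control kidneys. Of these 9 markers, 6 fell in GSK2830371 and 6 in DMSO against control kidneys, while the water channel Aqp2 had log2 changes of 0.18 (adjusted p = 0.631) in GSK2830371 and -0.14 (adjusted p = 0.699) in DMSO against control kidneys and was not called. Their part in the Klf5 values was not tested.

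Klf10, a TGF-beta-inducible repressor, had 890.4, 1071, 631, 1294 and 1072 normalised reads in GSK2830371 kidneys, 1629, 1255, 919, 843 and 1856 in DMSO kidneys and 820.4, 815, 1104 and 820.4 in control kidneys. The values of DMSO replicates 1 and 5 were the highest, and all 3 groups overlapped. Its log2 change was 0.13 (95% interval -0.39 to 0.65, adjusted p = 0.69) in GSK2830371 and 0.49 (-0.028 to 1.01, adjusted p = 0.109) in DMSO against control kidneys. The DMSO change passed the threshold without DMSO replicate 4 (0.63, adjusted p = 0.0432), among libraries of 31 days or fewer (0.63, adjusted p = 0.0314) and in the Xist-positive libraries alone (0.80, adjusted p = 0.0485). Of 14 TGF-beta inputs and KLF10 targets, 4 rose and 1 fell in GSK2830371 against control kidneys (median log2 change 0.24, 35.7% called), and 4 rose and 3 fell in DMSO against control kidneys (median 0.34, 50% called). The ligand gene Tgfb1 fell, with log2 changes of -0.64 (adjusted p = 0.0227) in GSK2830371 and -0.60 (adjusted p = 0.0283) in DMSO against control kidneys, and the receptor gene Tgfbr1 rose, by 1.31 (adjusted p = 8.26e-05) in GSK2830371 and 1.32 (adjusted p = 7.09e-05) in DMSO against control kidneys. Both Tgfb1 calls were lost in the Xist-positive libraries alone (-0.63, adjusted p = 0.0906 in GSK2830371 and -0.56, adjusted p = 0.194 in DMSO), and in all the GSK2830371 call was lost in 5 and the DMSO call in 8 of 23 alternatives. Left out singly, GSK2830371 replicate 3 and control replicates 1 and 2 ended the GSK2830371 call (log2 changes of -0.56 to -0.52), and DMSO replicates 1, 3 and 5 and control replicates 1, 2 and 4 the DMSO call (-0.61 to -0.52).

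Klf9, Klf15 and Klf13 were abundant in control kidneys and were called in neither comparison with them. Klf9, an antiproliferative repressor under glucocorticoid and clock control, had 25517, 14481, 11852, 11348 and 13106 normalised reads in GSK2830371 kidneys, 9522, 9399.9, 9303, 10835 and 8071 in DMSO kidneys and 9699, 10234, 13235 and 10683 in control kidneys. GSK2830371 replicate 1 stood far above all others, and the remaining 13 libraries lay between 8071 and 14481. Its log2 change was 0.42 (95% interval -0.028 to 0.86, adjusted p = 0.115) in GSK2830371 and -0.21 (-0.66 to 0.23, adjusted p = 0.418) in DMSO against control kidneys. Restricted to libraries of 31 days or fewer, which leaves GSK2830371 replicates 1 and 5, the GSK2830371 change was 0.76 with an adjusted p of 0.0424.

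Klf15, which drives amino acid catabolism and podocyte differentiation downstream of glucocorticoids, had 14324, 6705, 6957, 4537 and 4388 normalised reads in GSK2830371 kidneys, 3234, 3883, 3687, 4826 and 4012 in DMSO kidneys and 3128, 7001, 5694 and 5395 in control kidneys. Again GSK2830371 replicate 1 was the highest, and the groups overlapped. The log2 change was 0.39 (95% interval -0.25 to 1.03, adjusted p = 0.301) in GSK2830371 and -0.39 (-1.03 to 0.25, adjusted p = 0.303) in DMSO against control kidneys. Klf13, a relative of Klf9 known from lymphocytes and heart, had 9810.0, 7390.3, 4919, 4452 and 6231 normalised reads in GSK2830371 kidneys, 3332, 5805, 5676, 5954 and 3733 in DMSO kidneys and 5746, 6450.3, 6056 and 6052 in control kidneys. Its coefficient of variation was 32.8% in GSK2830371 and 25.7% in DMSO kidneys, against 4.75% in control kidneys, where the libraries were tightly grouped. Its log2 change was 0.053 (-0.44 to 0.54, adjusted p = 0.869) in GSK2830371 and -0.35 (-0.84 to 0.14, adjusted p = 0.221) in DMSO against control kidneys. Among lymphocyte markers, the 9 of T cells summed to 345 to 449 normalised reads in GSK2830371 kidneys, 299.9 to 1005 in DMSO kidneys and 535 to 1334 in control kidneys, with 0 higher and 2 lower in GSK2830371, and 1 higher and 3 lower in DMSO against control kidneys. The 5 of B cells summed to 213 to 1028 normalised reads in GSK2830371 kidneys, 53.2 to 1966 in DMSO kidneys and 638 to 1089.8 in control kidneys, with 0 higher and 1 lower in GSK2830371, and 0 higher and 0 lower in DMSO against control kidneys. Their part in the Klf13 values was not tested.

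Lists of genes around these 3 factors held calls in both directions. Of 18 glucocorticoid-response genes, 6 rose and 1 fell in GSK2830371 against control kidneys (median log2 change 0.66, 38.9% called), and 6 rose and 3 fell in DMSO against control kidneys (median 0.55, 50% called). The receptor gene Nr3c1, at the head of the list, had log2 changes of -0.11 (adjusted p = 0.646) in GSK2830371 and -0.10 (adjusted p = 0.671) in DMSO against control kidneys and was not called. Lcn2, a glucocorticoid-responsive gene that is also a marker of tubular injury, had the smallest p of the list and rose by 6.76 (adjusted p = 9.39e-06) in GSK2830371 and 6.505 (adjusted p = 1.23e-05) in DMSO against control kidneys. Of 17 clock genes, 5 rose and 4 fell in GSK2830371 against control kidneys (median log2 change -0.034, 52.9% called), and 3 rose and 7 fell in DMSO against control kidneys (median 0.25, 58.8% called). The activator gene Arntl (BMAL1) rose, by 2.46 (adjusted p = 0.00093) in GSK2830371 and 1.64 (adjusted p = 0.012) in DMSO against control kidneys, with the DMSO call lost in the Xist-positive libraries alone (0.82, adjusted p = 0.137), with the Xist covariate (0.81, adjusted p = 0.105) and in voom (1.60, adjusted p = 0.0519), and the output gene Dbp fell, with log2 changes of -3.08 (adjusted p = 0.000115) in GSK2830371 and -2.77 (adjusted p = 0.000226) in DMSO against control kidneys. Of 22 genes of amino acid catabolism and gluconeogenesis linked to KLF15 and KLF6, 2 rose and 5 fell in GSK2830371 against control kidneys (median log2 change -0.23, 31.8% called), and 2 rose and 7 fell in DMSO against control kidneys (median -0.35, 40.9% called). Bcat2, the mitochondrial branched-chain aminotransferase that KLF15 is known to regulate, fell, with log2 changes of -0.80 (adjusted p = 0.00436) in GSK2830371 and -0.95 (adjusted p = 0.00126) in DMSO against control kidneys, as did Bckdk, the kinase that holds back branched-chain keto acid oxidation, with -1.46 (adjusted p = 4.85e-05) in GSK2830371 and -1.50 (adjusted p = 3.44e-05) in DMSO against control kidneys. Over all genes 46.3% were called in GSK2830371 and 48.3% in DMSO against control kidneys. Proximal tubule markers summed to 103658 to 374410 normalised reads in GSK2830371 kidneys, 124962 to 342735 in DMSO kidneys and 554181 to 1019500 in control kidneys, with 7 of 10 lower in GSK2830371 and 7 of 10 in DMSO against control kidneys. Their part in the amino acid list was not tested.

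Of 8 podocyte genes that KLF4, KLF6 or KLF15 are known to regulate, 1 rose and 3 fell in GSK2830371 against control kidneys (median log2 change -0.51, 50% called), and 0 rose and 3 fell in DMSO against control kidneys (median -0.41, 37.5% called). Nphs1 (nephrin) had log2 changes of 0.094 (adjusted p = 0.871) in GSK2830371 and 0.43 (adjusted p = 0.414) in DMSO against control kidneys and was not called, and the podocyte transcription factor gene Wt1 fell, with log2 changes of -0.93 (adjusted p = 0.00533) in GSK2830371 and -0.997 (adjusted p = 0.0031) in DMSO against control kidneys. The 9 general podocyte markers summed to 19309 to 46853 normalised reads in GSK2830371 kidneys, 20788 to 44477 in DMSO kidneys and 27962 to 39521 in control kidneys, so the groups overlapped, and 4 fell in each comparison. Of 14 genes for KLF protein turnover, 6 rose and 4 fell in GSK2830371 against control kidneys (median log2 change -0.21, 71.4% called), and 5 rose and 4 fell in DMSO against control kidneys (median -0.13, 64.3% called). Wwp1, a ubiquitin ligase for KLF2 and KLF5, had log2 changes of -0.083 (adjusted p = 0.763) in GSK2830371 and 0.039 (adjusted p = 0.889) in DMSO against control kidneys and was not called, and the deubiquitinase gene Atxn3 rose, by 0.999 (adjusted p = 0.000151) in GSK2830371 and 1.10 (adjusted p = 6.16e-05) in DMSO against control kidneys.

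**Figure D2:**
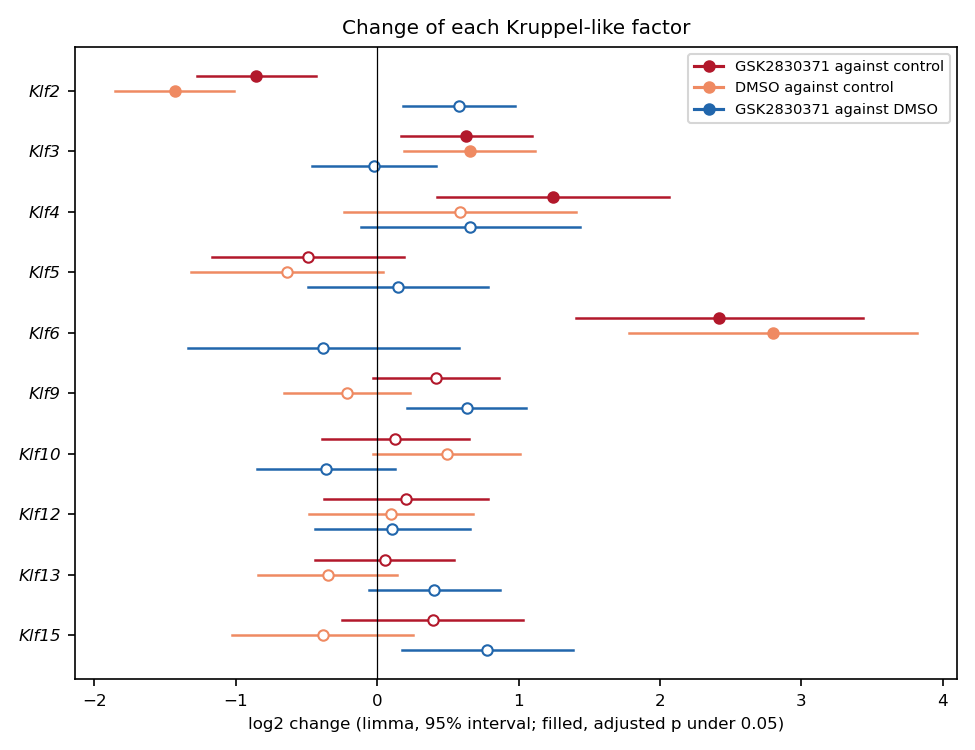
Log2 change (horizontal axis) of each Kruppel-like factor with its 95% interval in GSK2830371 against control, DMSO against control and GSK2830371 against DMSO kidneys, from limma; filled points have an adjusted p under 0.05. Klf6 lies farthest right and Klf2 farthest left in the comparisons with control, and no point of GSK2830371 against DMSO is filled.

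The inhibitor was compared with its vehicle among i-TERTci kidneys, the question the study's design text puts. GSK2830371 kidneys were taken after 28 to 49 days of doxycycline and DMSO kidneys after 29 to 38. The inhibitor and the time on doxycycline therefore cannot be fully told apart here. In GSK2830371 against DMSO kidneys none of the 10 KLFs was called by limma, edgeR or DESeq2, and across all genes limma called 0% of 18810, edgeR 0 genes and DESeq2 1. At an unadjusted p under 0.05 limma found 3 KLFs, Klf9, Klf2 and Klf15, all higher with GSK2830371, where 800 genes (4.25%) stood at that level. None of the 3 passes the adjustment over all genes, with adjusted p of 0.994 for each. The median log2 change of the 10 was 0.28, beside -0.0063 over all genes, and 7 of the 10 were above 0, as 48.9% of all genes were.

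Klf9 was the only member whose GSK2830371 and DMSO libraries did not overlap, as 0.239% of all genes were in the higher direction: the lowest GSK2830371 value, 11348 normalised reads, lay above the highest DMSO value, 10835. The gap between those 2 libraries is small beside the spread within each group. The log2 difference was 0.63 (95% interval 0.21 to 1.05, unadjusted p = 0.00574 from limma's moderated test), and 0.43 without GSK2830371 replicate 1. Klf2 differed by 0.58 (0.18 to 0.97, unadjusted p = 0.00688 in limma), with GSK2830371 replicates 1, 2 and 3 above the highest DMSO library and all 5 below the lowest control library. Klf15 differed by 0.78 (0.17 to 1.38, unadjusted p = 0.0148 in limma), and by 0.50 without GSK2830371 replicate 1. For Klf4 the difference was 0.66 (-0.12 to 1.43), which was 0.35 without GSK2830371 replicate 2 and 0.45 without replicate 1. The other 6 had intervals that include 0: 0.40 (-0.057 to 0.87) for Klf13, 0.15 (-0.49 to 0.79) for Klf5, 0.11 (-0.44 to 0.65) for Klf12, -0.023 (-0.46 to 0.41) for Klf3, -0.36 (-0.85 to 0.13) for Klf10 and -0.38 (-1.34 to 0.58) for Klf6. Such intervals do not show that the groups were alike.

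**Figure D3:**
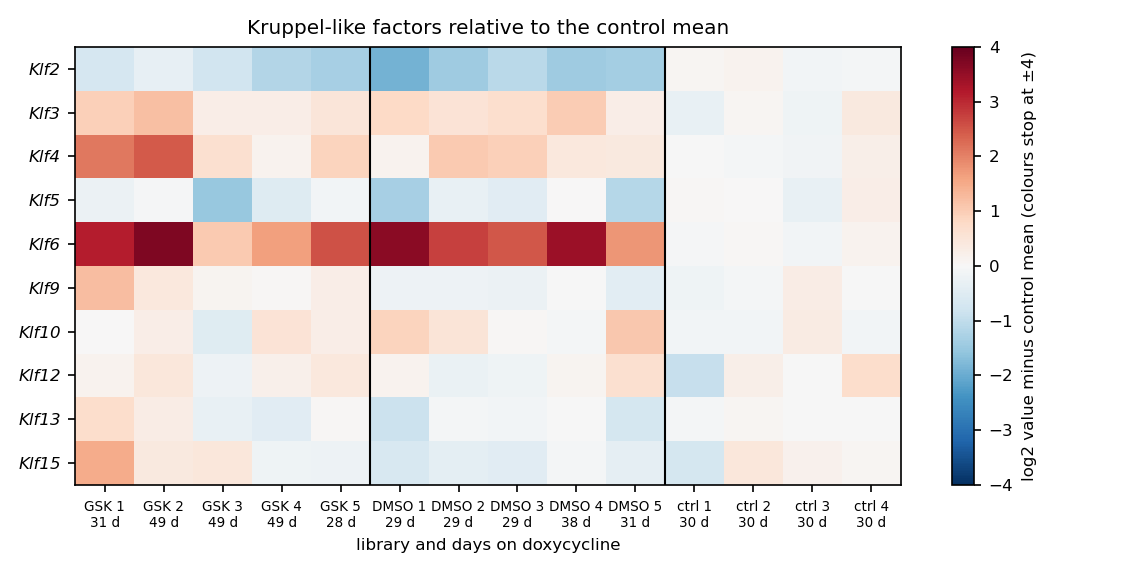
Log2 value of each Kruppel-like factor (rows) minus its control mean in each library (columns, with days on doxycycline), for GSK2830371 (GSK), DMSO and control (ctrl) kidneys; red is above and blue below the control mean. Klf9, Klf13 and Klf15 are highest in GSK2830371 replicate 1, and Klf3, Klf4 and Klf6 in GSK2830371 replicate 2.

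Individual kidneys set the top of the GSK2830371 range. Replicate 1 had the highest value of all 14 libraries for 3 of the 10 KLFs (Klf9, Klf13 and Klf15) and replicate 2 for 3 (Klf3, Klf4 and Klf6), where 6.91% of all genes tested had their highest value in replicate 1 and 7.83% in replicate 2. These counts describe 2 libraries and were not tested. The same 2 kidneys had the lowest Tert of the 10 i-TERTci libraries, at 355 normalised reads in replicate 1 and 231 in replicate 2, below the 574 of the next lowest, DMSO replicate 5, and above every control kidney. The part of transgene level in their KLF values was not tested. Other clock and steroid genes differed in where replicate 1 stood. Among the 10 i-TERTci libraries GSK2830371 replicate 1 was the highest for 6 of 18 glucocorticoid-response genes, 6 of 17 clock genes and 7 of 22 amino acid genes, beside 9.29% of all genes. Other kidneys held similar counts. GSK2830371 replicate 3 was the highest for 8 of the 22 amino acid genes, beside 9.39% of all genes. DMSO replicate 1 was the highest for 7 amino acid, 5 glucocorticoid-response and 3 clock genes, beside 18.7% of all genes. The following genes were chosen after their values were seen. Per3, a clock repressor, had its lowest value of all 14 libraries in GSK2830371 replicate 1, at 481 normalised reads. Per1, a clock gene that glucocorticoids induce, had 16277, 8131, 5843, 5069 and 7311 normalised reads in GSK2830371 kidneys, 4492, 5729, 6524, 4916 and 5675 in DMSO kidneys and 5546, 10673, 8703 and 10804 in control kidneys. GSK2830371 replicate 1 exceeded all 13 others. Arntl had 1425, 666, 333, 229 and 663 normalised reads in GSK2830371 kidneys, 493, 234, 295, 637 and 129 in DMSO kidneys and 86.9, 94.6, 101 and 112 in control kidneys. It was highest in the same kidney and lay above every control library in all i-TERTci kidneys.

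Foxo3 and Tsc22d3 were likewise chosen after their values were seen. Foxo3, a stress-response factor listed with the ERK5 branch, had 14007, 10499.9, 9050.2, 8639 and 9454 normalised reads in GSK2830371 kidneys, 4301, 7571, 6939, 6232 and 6217 in DMSO kidneys and 3162, 7366, 7859 and 6383 in control kidneys. As with Klf9, the GSK2830371 and DMSO libraries did not overlap. The log2 difference was 0.73 (unadjusted p = 0.00705 in limma, adjusted p = 0.994), and 0.46 in the Xist-positive libraries alone. Against control kidneys Foxo3 was called higher in GSK2830371 but was not called in DMSO kidneys. In limma the GSK2830371 call was lost in the Xist-positive libraries alone (0.70, adjusted p = 0.0696) and without control replicate 1 (0.50, adjusted p = 0.0633). Tsc22d3, which encodes the glucocorticoid-induced leucine zipper GILZ, had 7685, 9238, 4518, 5618 and 6704 normalised reads in GSK2830371 kidneys, 1214, 5458, 3710.3, 3544 and 3606 in DMSO kidneys and 3434, 6714, 6894 and 4881 in control kidneys. It was lowest in DMSO replicate 1, and the GSK2830371 and DMSO libraries overlapped. It differed by 1.05 (unadjusted p = 0.00644 in limma, adjusted p = 0.994). The difference was 0.49 to 1.25 over the 23 alternatives, and was smallest in the Xist-positive libraries alone. Of the 18 glucocorticoid-response genes 3 had an unadjusted p under 0.05 in limma in GSK2830371 against DMSO kidneys, and of the 17 clock genes 1. At the same level stood 4 of the 21 immediate early genes, 3 of the 14 in the ERK5 list and 4.25% of all genes. None was called in any of the 11 pathway lists. The median log2 difference was 0.42 for the glucocorticoid list, 0.25 for the clock list and 0.12 for the amino acid list. It was -0.38 for the immediate early list, with 4 of 21 above 0, and -0.0063 over all genes. Time of day at kidney collection is not given in the sources used here, and its part in these values was not tested. The 6 adipocyte markers summed to 6923 to 90889 normalised reads in GSK2830371 kidneys, 9053 to 34578 in DMSO kidneys and 45839 to 123448 in control kidneys, and most of each sum was Lpl, at 5554 to 89518 in GSK2830371, 8138 to 30134 in DMSO and 44422 to 120569 in control kidneys. The defining marker Adipoq had 0 to 1313 in GSK2830371, 0 to 1.85 in DMSO and 0 to 66 in control kidneys and was at 0 in GSK2830371 replicate 1. It was highest in GSK2830371 replicate 4, where Plin1 had 886 and Cfd 6578 normalised reads. Lpl, Plin1 and Cfd were chosen after their values were seen. The part of adipose tissue in these values was not tested.

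**Figure D4:**
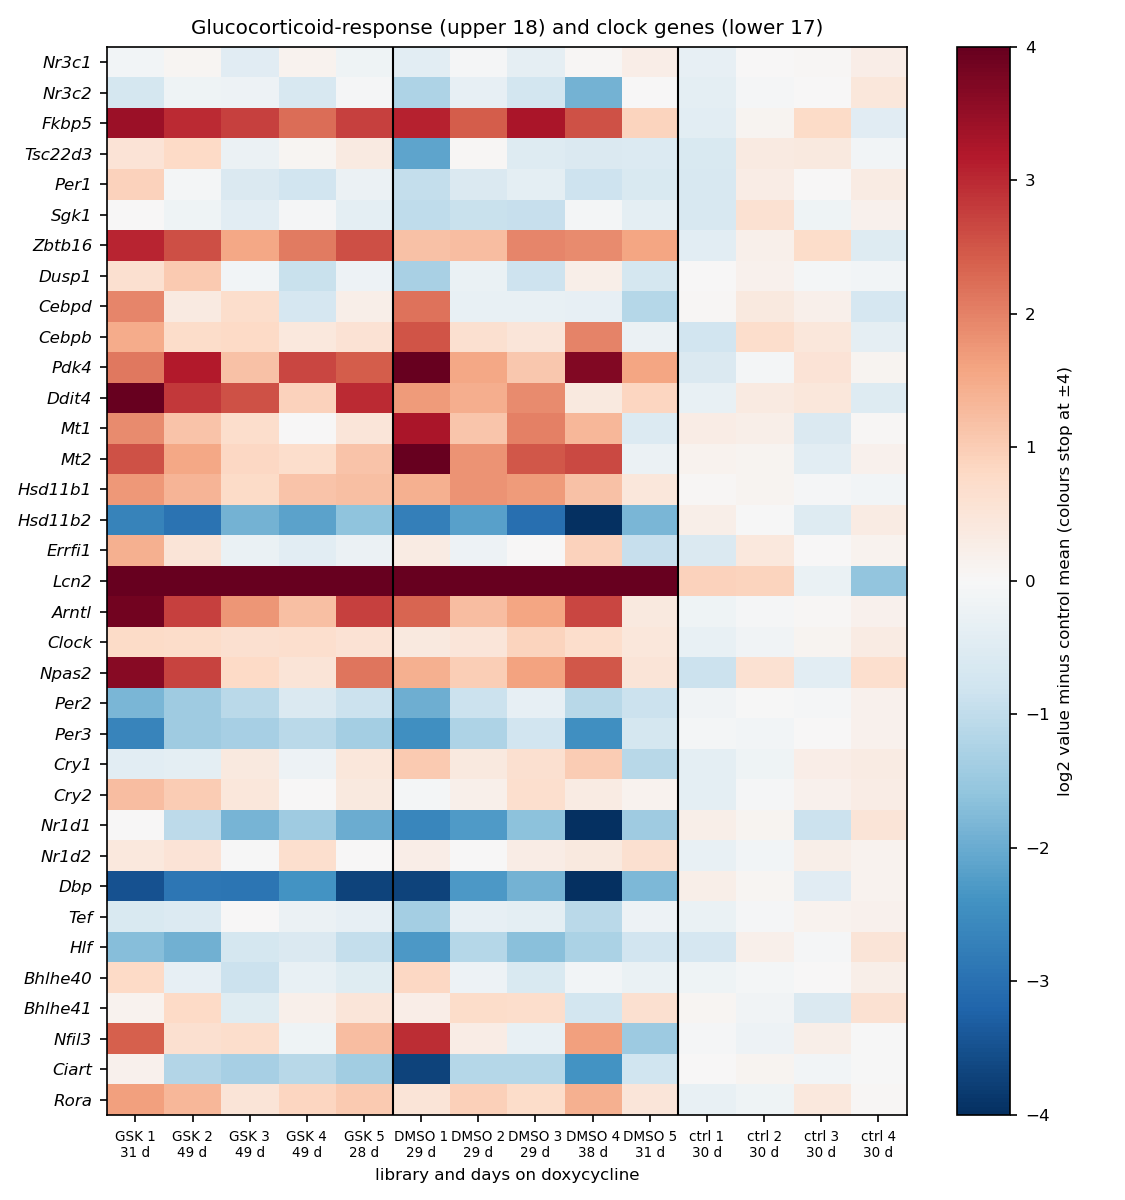
Log2 value minus control mean of 18 glucocorticoid-response genes (upper rows, Nr3c1 to Lcn2) and 17 clock genes (lower rows, Arntl to Rora) in each library of the GSK2830371 (GSK), DMSO and control (ctrl) groups, with colours that stop at 4 in either direction. Among the genes to be seen, picked after plotting, Arntl, Npas2, Ddit4 and Zbtb16 are reddest in GSK2830371 replicate 1, and Dbp and Hsd11b2 are blue in all 10 i-TERTci libraries.

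The order of abundance among the KLFs differed between groups. Per kilobase of exon, Klf9 stood first in GSK2830371 kidneys at 3169 ± 1217 normalised reads per kilobase, before Klf6 at 2828 ± 1958 and Klf15 at 2645 ± 1454 (SD, n = 5). In DMSO kidneys Klf6 stood first at 3279 ± 1555, before Klf9 at 1958 ± 204 and Klf15 at 1408 ± 209 (SD, n = 5). In GSK2830371 kidneys these 3 overlapped within their SDs, and in DMSO kidneys Klf6 and Klf9 did, while Klf15 lay below both. In control kidneys Klf9 stood at 2277 ± 326, Klf15 at 1901 ± 577, Klf2 at 1678 ± 146, Klf13 at 807 ± 38.3 and Klf6 at 427 ± 33.4 (SD, n = 4). There, Klf15 lay within its SD of Klf9 and of Klf2, whereas Klf2, Klf13 and Klf6 were separated by more than their SDs. Klf10, Klf12 and Klf5 were the last 3 in every group, with Klf5 at 58.7 ± 19.2 in GSK2830371, 53.2 ± 20.2 in DMSO and 78.8 ± 12.4 in control kidneys.

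As a share of the summed level per kilobase of the 10 KLFs, Klf6 took 21.4% ± 9.24 in GSK2830371 and 33.6% ± 11.1 in DMSO kidneys, against 5.30% ± 0.609 in control kidneys (SD, n = 5, 5 and 4). Klf2 took 8.28% ± 2.34 in GSK2830371 and 6.99% ± 2.20 in DMSO kidneys, against 20.9% ± 3.22 in control kidneys. The sum itself was 12315 ± 5041 normalised reads per kilobase in GSK2830371, 9370 ± 1666 in DMSO and 8105 ± 788 in control kidneys, and its range was 7817 to 18940.1 in GSK2830371, 7116 to 11335 in DMSO and 6976 to 8758 in control kidneys, so that the total overlapped between groups.

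The wider family was read in the same way. Of 17 other KLF and SP genes, 13 had a row in both tables and 11 passed the filter on low values; Sp7 and Sp9 did not, and Klf14, Klf17, Klf18 and Sp8 had no row. Among the 11, 3 rose and 2 fell in GSK2830371 against control kidneys (median log2 change 0.034, 45.5% called), and 3 rose and 2 fell in DMSO against control kidneys (median 0.017, 45.5% called), or 45.5% in each comparison beside 46.3% of all genes in GSK2830371 and 48.3% in DMSO. The 5 called genes were the same in both, Klf11, Sp1, Sp3, Sp2 and Sp5, but not in the Xist-positive libraries alone. There the DMSO calls of Klf11 (0.99, adjusted p = 0.0644), Sp1 (0.64, adjusted p = 0.0505) and Sp3 (0.72, adjusted p = 0.0551) and the GSK2830371 call of Klf11 (0.79, adjusted p = 0.0774) were lost, and Klf8, another CtBP-binding repressor, was called in DMSO (1.201, adjusted p = 0.0284). Klf11, a TGF-beta-inducible relative of Klf10, had 1068, 1626, 499, 953 and 1001 normalised reads in GSK2830371 kidneys, 1180.1, 879, 639, 1038 and 1293 in DMSO kidneys and 552, 462, 594 and 549 in control kidneys. GSK2830371 replicate 3 lay within the control range, while every DMSO library lay above it. The log2 changes were 0.84 (adjusted p = 0.0191) in GSK2830371 and 0.86 (adjusted p = 0.0161) in DMSO against control kidneys. Its GSK2830371 call was also lost without GSK2830371 replicate 2 (0.66, adjusted p = 0.051) or control replicate 2 (0.77, adjusted p = 0.0573), and its DMSO call without control replicate 2 (0.79, adjusted p = 0.0502).

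Sp1 and Sp3 are ubiquitous factors that compete with KLFs for GC boxes. Sp1 rose, by 0.89 (adjusted p = 0.000404) in GSK2830371 and 0.63 (adjusted p = 0.00467) in DMSO against control kidneys, and Sp3 by 1.08 (adjusted p = 0.000589) in GSK2830371 and 0.88 (adjusted p = 0.0024) in DMSO against control kidneys. Sp2, which binds other promoter elements, fell, with log2 changes of -0.94 (adjusted p = 0.00315) in GSK2830371 and -1.12 (adjusted p = 0.000864) in DMSO against control kidneys. Among libraries of 31 days or fewer its GSK2830371 call was lost (-0.60, adjusted p = 0.111). Sp5, a Wnt-induced repressor and the gene with the largest change of the 11, had 331, 316, 281, 257 and 255 normalised reads in GSK2830371 kidneys, 202, 286, 306, 520.0 and 217 in DMSO kidneys and 784, 977, 681 and 982 in control kidneys. Every i-TERTci library lay below every control library. Its log2 changes were -1.56 (adjusted p = 0.000133) in GSK2830371 and -1.55 (adjusted p = 0.000125) in DMSO against control kidneys. Exons of Sp2 and Sp3 overlap an opposite-strand transcript with at most 197 and 236 reads. Sp6, with as few as 21 reads, shares 3329 of its 3841 exon bases with the opposite-strand Gm11532, which had at most 20. Klf7 shares 3196 exon bases with the opposite-strand Gm26649, which has no row in both tables. Without a stated strand setting the reads of such overlaps cannot be told apart. In GSK2830371 against DMSO kidneys none of the 11 had an unadjusted p under 0.05 in limma.

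**Figure D5:**
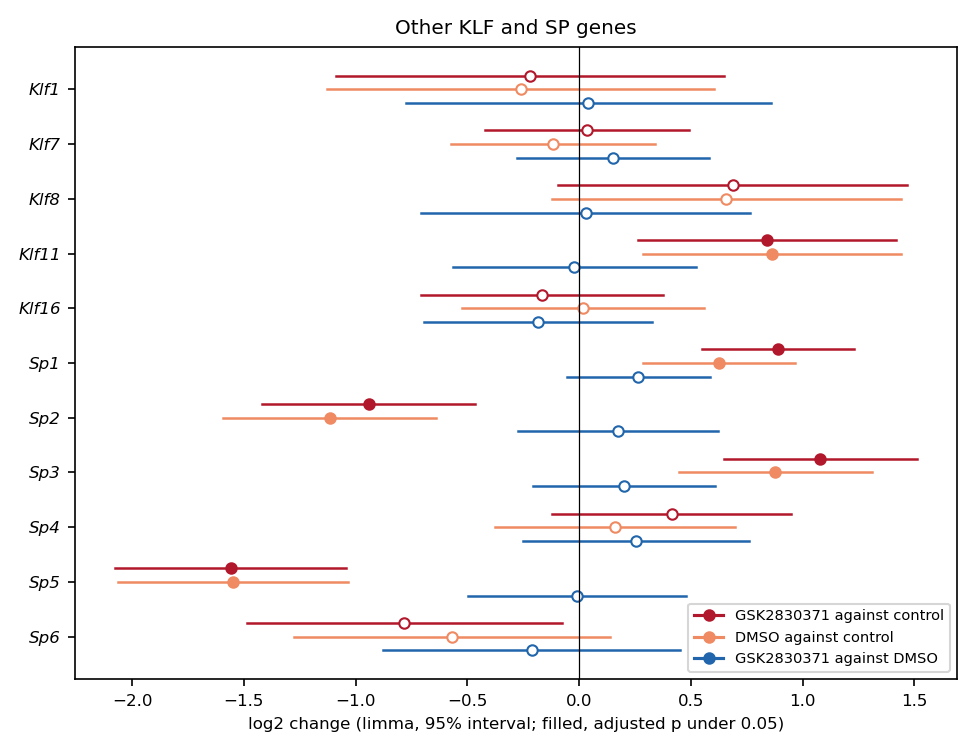
Log2 change (horizontal axis) with its 95% interval of the 11 other KLF and SP genes in GSK2830371 against control, DMSO against control and GSK2830371 against DMSO kidneys, from limma; filled points have an adjusted p under 0.05. Klf11, Sp1 and Sp3 lie to the right and Sp2 and Sp5 to the left in the comparisons with control.

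For the 2 KLFs that changed by at least 1 on the log2 scale in DMSO against control kidneys, the genes of likest pattern were sought over all 14 libraries, each gene being centred on its control mean. Klf2 was most like Peg13 and Camsap3, with root mean square differences of 0.27 and 0.28 on the log2 scale, among 15628 genes compared. Klf6 was most like Bnip5 and Akap12, with 0.43 and 0.48.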

How the data were processed

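Whole kidneys (14 libraries) were sequenced in bulk. Per the submitters' processing notes, the reads were handled with FastQC, Trimmomatic, STAR and DESeq2 on mm10; for the versions, read counter, annotation and strandedness, nothing is stated in the sources used here. The deposited values are a signal per gene. The tables' names call them raw counts, but the authors had divided whole reads by a size factor for each library. Each of the 2 tables covers 9 libraries, including the same 4 controls. All 435465 values were whole multiples of their column's step within 0.001, so the reads were recovered, and the control reads did not differ between tables.

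An edgeR test of raw counts had been planned. Because the deposited values were normalised, the main test was moved to limma 3.58.1 (R 4.3.3), fitted by group to all 14 libraries (trend and robust options on). Recovered reads were scaled by median-of-ratios over the 14 libraries and put on the log2(value + 1) scale, and filterByExpr left 18810 genes. Tests were two-sided, with Benjamini-Hochberg adjustment over these genes and a threshold of 0.05. The labels do not state that each library is a separate mouse in every group, so p-values measure the spread between libraries. The fit was also run on simulated data with known changes. Every group there had the same dispersion, so the run does not cover the unequal spread between groups seen for genes such as Klf6. Exon lengths and overlaps came from GENCODE M21 (GRCm38).

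The alternatives were edgeR 4.0.16, DESeq2 1.42.0, voom, TMM scaling, the deposited scaling, pseudocounts of 0.5 and 4, no filter, mitochondrial genes left out, only the 2 groups compared, a replicate block, an Xist covariate, Xist-positive libraries only, libraries of 31 days or fewer, and each library left out in turn. Of the listed genes, 1 is not reported here. The 10 members and all gene lists were chosen with earlier results of these data known. Named genes are all members, every other KLF and SP gene past the filter, the head and the smallest p of each pathway list, and the 2 likest genes for members that changed by at least 1 on the log2 scale in DMSO against control kidneys, with head and smallest p read in that comparison too, and the head of each cell type list. Genes named outside this rule are said to be chosen after their values were seen.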

Additional observations from a re-analysis of the deposited data

Results flagged for a closer look

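For the 21 KLF and SP genes tested, the highest and lowest library of each group was compared with the rest of that group. In 5 of 63 such groups 1 library stood apart, by Dixon's criterion at the 95% level, and chance alone marks about 1 group in 20. Klf9 in GSK2830371 replicate 1 had 25517 normalised reads, against 11348 to 14481 in the other GSK2830371 kidneys. Klf15 in the same kidney had 14324, against 4388 to 6957. Sp6, an epithelial SP factor, was low in that kidney, at 23.7 normalised reads, against 58.9 to 67.6. Sp6 had few reads, 21 at the fewest, and most of its exon bases overlap an opposite-strand transcript. Klf10 in control replicate 3 had 1104, against 815 to 820.4 in the other control kidneys. Sp2 in DMSO replicate 1 had 994, against 612 to 713 in the other DMSO kidneys. So 3 of the 5 were in GSK2830371 replicate 1. Without it, GSK2830371 against DMSO kidneys differed by 0.43 for Klf9 and 0.50 for Klf15 on the log2 scale, and neither was called with or without it.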

How the results depend on the processing

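Klf2 and Klf6 kept their direction and their call in all 23 alternatives of both comparisons with control kidneys. Of 690 single-KLF values under an alternative, 651 kept direction and side of the threshold, 12 lost and 7 gained a call, and 20 changed sign. Among libraries of 31 days or fewer 5 KLFs were called in DMSO against control kidneys, where 3 were called with all libraries. In Xist-positive libraries alone 2 were called in GSK2830371 against control kidneys, where 4 were called with all libraries, and 3 of the other KLF and SP genes in DMSO against control kidneys, where 5 were. Across all genes, GSK2830371 against DMSO kidneys gave 2 calls in Xist-positive libraries alone and 1 with DESeq2. Leaving out 1 library at a time gave 7254 to 8625 genes and 3 to 4 KLFs in GSK2830371 against control, 7645 to 9108 genes and 2 to 3 KLFs in DMSO against control, and 0 genes in GSK2830371 against DMSO kidneys. The sign changes were all of uncalled values. They were -0.062 (Xist covariate) and -0.14 (Xist-positive only) for Klf13 in GSK2830371 against control kidneys. In GSK2830371 against DMSO kidneys Klf3 had 0.033 (Xist covariate), 0.19 (Xist-positive only), 0.16 (31 days or fewer), 0.0041 (edgeR) and 0.0038 (DESeq2), Klf12 had -0.025 (Xist-positive only) and Klf6 had 0.20 (31 days or fewer); the cause was not tested. With 1 library left out, signs changed for Klf13 (range -0.10 to 0.18) and Klf12 (-0.11 to 0.43) in GSK2830371 against control, Klf12 (-0.21 to 0.32) in DMSO against control, and Klf3 (-0.16 to 0.07, or 0.070 without GSK2830371 replicate 4) and Klf5 (-0.029 to 0.40) in GSK2830371 against DMSO kidneys.

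Whether the replicate numbers mark pairs of libraries was not settled. Of 13 same-number pairs 4 had deviations correlated above 0.1, and 6 of 14 libraries matched their own number best. The DMSO and GSK2830371 libraries correlated at 0.335 for replicate 1 and 0.265 for replicate 2. With the replicate block, 9248 genes were called in GSK2830371 against control, 9589 in DMSO against control and 0 in GSK2830371 against DMSO kidneys, with 4, 3 and 0 KLFs. The main fit without it called 8716 in GSK2830371 and 9079 in DMSO against control kidneys. On the recovered reads edgeR called 8496 genes in GSK2830371 against control, 8892 in DMSO against control and 0 in GSK2830371 against DMSO kidneys. No scaling moved the median of all genes by over 0.1 on the log2 scale. With 4 or 5 libraries a group, a missed threshold does not show that a gene was alike between groups. Among libraries of 31 days or fewer the GSK2830371 group holds 2 kidneys, both Y-positive, so that setting cannot be told apart from sex.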
